A study of Mus musculus with 6 samples.

Results

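Fc receptors bind the constant part of antibodies, and 6 genes of this family were followed here: Fcgr1, Fcgr2b, Fcgr3, Fcgr4, Fcgrt and Fcer1g. They were taken by name, as 6 of the 51789 genes in the count table, and all 6 passed the filter on low counts. Messenger RNA had been measured in mouse bone marrow neutrophils selected with beads against Ly6G, a neutrophil surface protein, at a purity above 95% per the labels. The groups were 3 libraries labelled KO and 3 labelled WT for Snph, which encodes syntaphilin, known for holding mitochondria in place along microtubules. By its title, the study asked about the movement of neutrophils in cancer. The sources used here do not give the strain or age of the mice, any tumour they carried or the deleted part of Snph. They also do not say whether the replicates came from separate animals. The p-values therefore set the difference between groups against a spread within groups that may be only technical.

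An Fc receptor for IgG reports an antibody-coated particle to the inside of the cell. The activating mouse receptors FcγRI, FcγRIII and FcγRIV, encoded by Fcgr1, Fcgr3 and Fcgr4, have no signalling motif of their own and pair with the common gamma chain, encoded by Fcer1g, whose immunoreceptor tyrosine-based activation motif (ITAM) is phosphorylated by Src family kinases and recruits the kinase Syk. FcγRIIB, encoded by Fcgr2b, carries an inhibitory motif (ITIM) that recruits phosphatases, among them the product of Inpp5d. The neonatal receptor FcRn, encoded by Fcgrt, pairs with beta-2-microglobulin and returns IgG and albumin from endosomes to the surface instead of sending them to lysosomes. FcγRI binds monomeric IgG with high affinity and is known from macrophages and monocytes. FcγRIII and FcγRIV bind immune complexes and are known from mouse neutrophils as well.

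The coding stretches of the activating and the inhibitory motif are shown because they set the gamma chain apart from the receptor that opposes it. Both are read 5′ to 3′ from GENCODE vM21 transcripts, with the tyrosine codons in capitals.
Fcer1g ITAM, codons 64 to 80: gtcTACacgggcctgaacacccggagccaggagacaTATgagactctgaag
Fcgr2b ITIM, codons 314 to 325: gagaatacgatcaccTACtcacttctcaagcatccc
An in-frame search for a tyrosine codon, any pair of codons and a leucine or isoleucine codon, repeated after 6 to 8 codons, matched once in Fcer1g (86 codons) and in none of the other 5 genes. The ITIM search was looser and matched in 5 of the 6 genes, so a match to it does not mark an inhibitory receptor.

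Fcgr2b, Fcgr4, Fcgr3 and Fcer1g lie within 276 kb on chromosome 1 (170958617 to 171234365, mm10), with Fcgr4 on the plus strand and the others on the minus strand. Fcgr1 lies on chromosome 3 (96282909 to 96293969) and Fcgrt on chromosome 7 (45092990 to 45103851), both on the minus strand. The coding sequences of Fcgr2b and Fcgr3 are close relatives, identical at 86.7% of 782 aligned bases, so reads could in principle be shared between them. The libraries carry tags from the 3′ end of transcripts, however, and of the 50-base words in the last 500 bases of Fcgr3 coding transcripts 0 of 922 occur in a transcript of another gene. For Fcgr2b the figure was 33 of 1467 (2.25%), and for each of the other 4 genes it was 0. Exons of Fcgr2b overlap an antisense gene that had 0 counts, and exons of the other members overlap no annotated gene.

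Total counts per library ran from 7179569 to 9165218 in the KO-labelled and from 7018388 to 9664381 in the WT-labelled group, so that 1 count was worth 0.103 to 0.142 CPM (counts per 1000000 counts of the library). The targeted gene had counts only in the KO-labelled libraries, which a full loss of its transcript would not give. Snph had 5, 2 and 8 counts in KO 1, 2 and 3 and 0 counts in each WT-labelled library. An exact two-sided permutation test gave p = 0.1, the smallest that 3 against 3 allow. As the deleted part of Snph is not given, these few counts cannot show whether the labels are right. Every direction below therefore rests on the labels as they stand. The neutrophil list was well represented, with a summed level of 311369 to 331488 CPM in KO-labelled and 273120 to 292903 CPM in WT-labelled libraries, and Ly6g stood at 1188 ± 79.1 and 1047 ± 101 CPM (SD, n = 3 each). Among the 12 tested genes of this list S100a8 and Retnlg rose and none fell, at an edgeR adjusted p under 0.05. By the same measure, used for the lists that follow as well, 0.789% of all genes tested fell and 0.240% rose. Of 18 macrophage markers, 13 fell and none rose, and their summed level was 1079 to 1244 CPM in the KO-labelled against 1878 to 1940 CPM in the WT-labelled libraries. Of 5 platelet markers, 3 fell (57.8 to 85.1 CPM against 124 to 146 CPM), and 3 of 4 tested plasma cell markers rose (458 to 1231 CPM against 234 to 301 CPM). In a bulk sample, fewer cells of a type and less RNA per cell cannot be told apart.

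The receptor genes did not move together. Fcgr1 and Fcgrt fell to less than 0.45 of their WT-labelled level in the KO-labelled libraries, whereas Fcgr3, Fcgr4 and Fcer1g, the members with the most counts, stood 1.09- to 1.14-fold above it without passing the test. Fcgr2b was at 1.01-fold. In the quasi-likelihood test of edgeR, fitted on 10397 genes with p adjusted over all of them and a threshold of 0.05, 2 of the 6 members were lower and 0 were higher. Among all genes tested 1.03% were called, 0.789% lower and 0.240% higher. The groups did not overlap for 5 of the 6 members, 2 of them lower in the KO-labelled group; among all genes tested this held for 16.8%, with 9.32% lower. The median of all log2 fold changes was 0.0057.

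**Figure D1:**
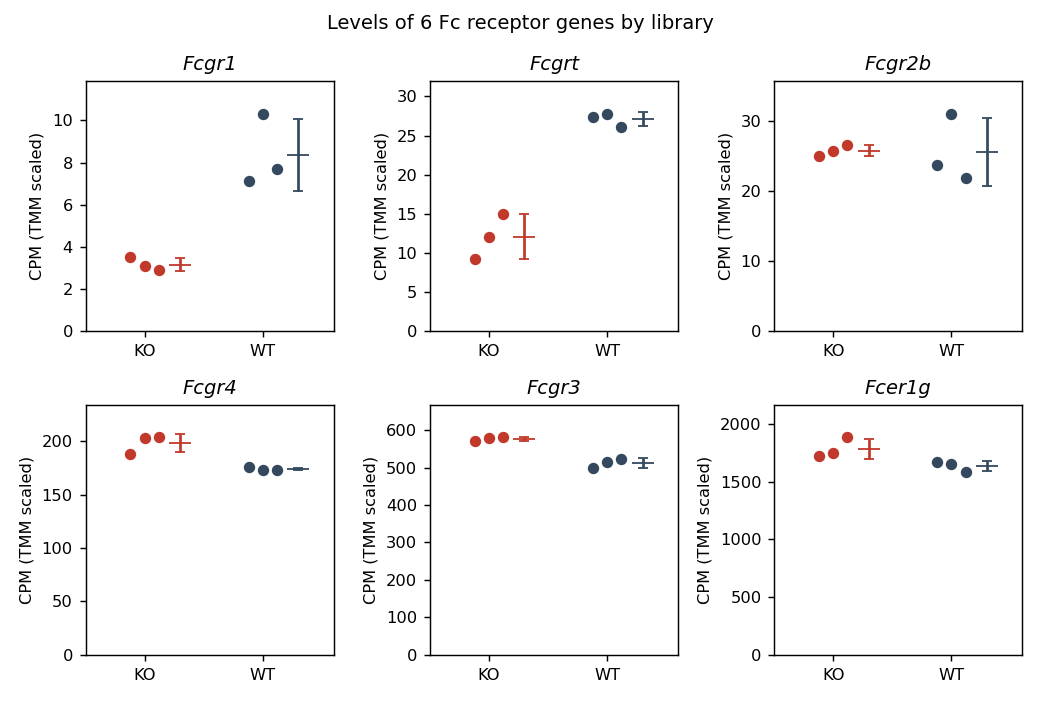
CPM scaled by TMM factors (y axes from 0) of each gene in the 3 KO-labelled and 3 WT-labelled libraries. Points are libraries, and bars beside them are the mean ± SD. All KO-labelled points of Fcgr1 and Fcgrt lie below the WT-labelled ones, those of Fcgr3, Fcgr4 and Fcer1g lie a little above, and for Fcgr2b the groups overlap.

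Fcgr1, the gene of the high-affinity receptor, was the scarcest member. Its level was 3.50, 3.09 and 2.90 CPM in KO 1, 2 and 3, from 26, 21 and 26 counts, and 7.11, 10.3 and 7.68 CPM in WT 1, 2 and 3, from 58, 101 and 57 counts. Every KO-labelled library lay far below the lowest WT-labelled one, and WT 2 was the highest of all. Group means were 3.16 ± 0.31 and 8.37 ± 1.71 CPM (SD, n = 3 each). Fcgr1 was 2.65-fold lower in the KO-labelled group (log2 fold change -1.41, SE 0.26, 95% interval -1.97 to -0.85; edgeR adjusted p = 0.0161). Without WT 2 the log2 fold change was -1.22 and the adjusted p 0.153, and without KO 3 it was -1.35 with an adjusted p of 0.0553, so the call rests on each of these libraries. Over all 14 alternatives the adjusted p of Fcgr1 ran from 0.000364 to 0.153. The interval of the fit without WT 2, -1.87 to -0.57, stayed below 0.

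Fcgrt, the gene of the neonatal receptor, fell as well. It had 9.17, 12.06 and 14.95 CPM in KO 1, 2 and 3 (68, 82 and 134 counts), against 27.4, 27.8 and 26.1 CPM in WT 1, 2 and 3 (223, 272 and 194 counts). The WT-labelled libraries lay close together, while the KO-labelled ones were more spread, with KO 1 the lowest and KO 3 the highest; the groups did not overlap. Means were 12.1 ± 2.89 and 27.1 ± 0.85 CPM (SD, n = 3 each), a 2.23-fold lower level (log2 fold change -1.16, SE 0.17, 95% interval -1.53 to -0.79; edgeR adjusted p = 0.00308). The call of Fcgrt held without any 1 library, with an adjusted p of at most 0.0321. B2m, the gene of its light chain, was at 2200 ± 184 CPM in KO-labelled and 2080 ± 381 CPM in WT-labelled libraries (SD, n = 3 each) and did not pass the test (log2 fold change 0.081, adjusted p = 0.847). Per B2m count there were 0.0038, 0.0057 and 0.0072 counts of Fcgrt in KO 1, 2 and 3 and 0.014, 0.016 and 0.010 in WT 1, 2 and 3, with no overlap.

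**Figure D2:**
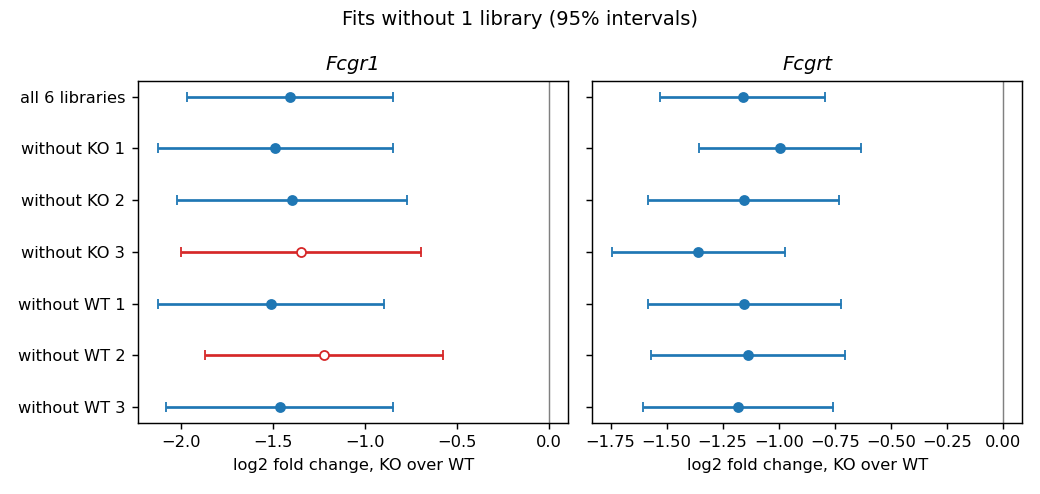
Log2 fold change, KO-labelled over WT-labelled, of Fcgr1 and Fcgrt in all 6 libraries and without each library in turn, with 95% intervals; the 2 x axes differ in range. Filled blue points passed an adjusted p of 0.05 and open red points did not. Open points appear for Fcgr1 without KO 3 and without WT 2.

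The levels of these 2 genes stood beside those of macrophage markers. Relative to the WT-labelled mean, on the log2 scale, the median of the 18 macrophage markers was -1.14, -1.01 and -0.84 in KO 1, 2 and 3. Fcgrt stood at -1.54, -1.15 and -0.85 in the same libraries, lowest in KO 1 and highest in KO 3 like the markers. Fcgr1 stood at -1.18, -1.35 and -1.44, lowest in KO 3. These Fcgr1 values rest on only 26, 21 and 26 counts in KO 1, 2 and 3. With total-count scaling, their intervals for counting error were 2.20 to 4.94, 1.81 to 4.47 and 1.85 to 4.16 CPM. As these intervals overlap, the order of Fcgr1 among the KO-labelled libraries is not resolved and cannot be set against that of the markers. The markers that fell included the complement genes C1qa, C1qb and C1qc, the secreted protein gene Cd5l, the receptor kinase genes Mertk and Axl and the transcription factor gene Spic; none of the 18 had 0 counts in all libraries. Csf1r, the receptor gene for macrophage colony-stimulating factor, which monocytes also express, did not pass (182 ± 17.8 CPM in KO-labelled and 184 ± 13.8 CPM in WT-labelled libraries, SD, n = 3 each, edgeR adjusted p = 0.974). Slc40a1 (log2 fold change -0.23, edgeR adjusted p = 0.232), Cd68 (-0.34, 0.161), Hmox1 (-0.54, 0.0963) and Siglec1 (-0.81, 0.398) did not pass either. The falls thus differed in size between markers. Cd68, Hmox1 and Siglec1 were named after their values were seen. No monocyte marker passed of 6 tested. The log2 fold change was below 0 for 5 of the 6, with a median over all 6 of -0.53. Of these 5, Ccr2 (-0.74), Cx3cr1 (-0.33) and F13a1 (-0.038), named after their values were seen, had groups that overlapped. Klf4 (3.64 ± 0.63 CPM in KO-labelled and 7.49 ± 1.27 CPM in WT-labelled libraries; log2 fold change -1.05, adjusted p = 0.0865) and Ms4a6c (3.55 ± 1.04 and 6.27 ± 0.12 CPM; -0.83, adjusted p = 0.243) had groups that did not overlap (SD, n = 3 each; both were singled out after their values were seen). Among all genes tested, 9.32% had groups that did not overlap with the KO-labelled group lower. The summed monocyte level, 1361 to 1501 CPM in KO-labelled and 1300 to 1524 CPM in WT-labelled libraries, was nearly all Ly6c2 (1436 and 1377 CPM on average) and says little of the other monocyte markers. The part of macrophage or monocyte transcripts in the fall of Fcgr1 and Fcgrt was not tested.

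**Figure D3:**
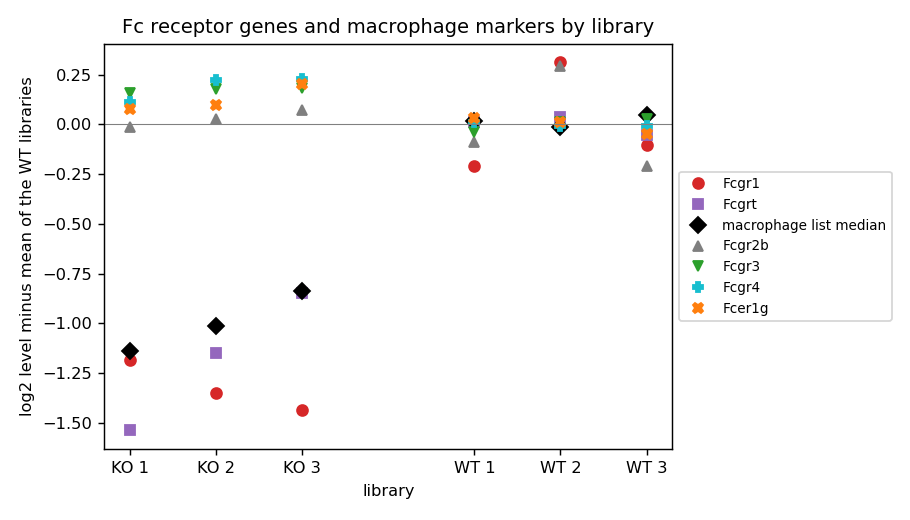
Log2 level of each gene minus its mean over the WT-labelled libraries (y axis), by library (x axis); black diamonds give the median of 18 macrophage markers. In the KO-labelled libraries Fcgr1, Fcgrt and the marker median lie between -1.54 and -0.84, and the other 4 genes lie between -0.012 and 0.23.

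The activating receptor genes Fcgr3 and Fcgr4 made up nearly all Fcγ receptor counts. Fcgr3 had 570, 578 and 580 CPM in KO 1, 2 and 3, against 498, 516 and 522 CPM in WT 1, 2 and 3. All KO-labelled libraries lay above the WT-labelled ones, and neither group was widely spread. Means were 576 ± 5.3 and 512 ± 12.5 CPM (SD, n = 3 each), and the log2 fold change of 0.17 (SE 0.069, 95% interval 0.025 to 0.32) did not pass (unadjusted p = 0.0249, adjusted p = 0.347, edgeR). Fcgr4 had 188, 203 and 204 CPM in KO 1, 2 and 3, against 175, 173 and 173 CPM in WT 1, 2 and 3. Its WT-labelled libraries were nearly level and all lay below KO 1, the lowest of the KO-labelled ones. The log2 fold change of Fcgr4 was 0.19 (SE 0.077, 95% interval 0.024 to 0.35), which did not pass (unadjusted p = 0.0278, adjusted p = 0.359, edgeR). Scaled to total counts alone, which moved the median of all genes by about -0.10, the log2 fold changes were 0.067 for Fcgr3 and 0.084 for Fcgr4 and the groups overlapped for both.

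Fcgr2b, the inhibitory receptor gene, had 25.1, 25.7 and 26.6 CPM in KO 1, 2 and 3, against 23.8, 31.1 and 21.8 CPM in WT 1, 2 and 3. The KO-labelled libraries lay inside the range of the WT-labelled ones, of which WT 2 was the highest, as it was for Fcgr1. The log2 fold change was 0.0075 (SE 0.15, 95% interval -0.31 to 0.32; edgeR adjusted p = 0.990), so a change of up to about 1.25-fold either way lies within the interval. With total-count scaling, upper-quartile factors or a stricter filter the sign of Fcgr2b turned, also without a call. FcγRIIB is also the main Fc receptor of B cells, and of 6 tested B cell markers none passed, at a summed level of 16.2 to 20.9 CPM in KO-labelled and 24.0 to 26.3 CPM in WT-labelled libraries.

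Shares among the Fcγ receptors do not depend on the scaling of the libraries. Fcgr3 made up 71.4% to 72.5% of the counts of Fcgr1, Fcgr2b, Fcgr3 and Fcgr4 in KO-labelled libraries and 70.6% to 72.0% in WT-labelled libraries, and Fcgr4 made up 23.9% to 25.1% and 23.7% to 24.9%. Both ranges overlapped. The share of Fcgr1 was 0.445%, 0.381% and 0.357% in KO 1, 2 and 3 and 1.01%, 1.41% and 1.06% in WT 1, 2 and 3. Exact binomial 95% intervals of the Fcgr1 share reached at most 0.652% in KO-labelled and went down to 0.768% in WT-labelled libraries, and cover counting error only. The balance of activating to inhibitory receptors, the summed counts of Fcgr1, Fcgr3 and Fcgr4 per count of Fcgr2b, was 30.4, 30.5 and 29.6 in KO 1, 2 and 3 and 28.6, 22.5 and 32.2 in WT 1, 2 and 3. These groups overlapped, and the mean log2 ratio was 0.14 higher in the KO-labelled group, within the WT-labelled SD of 0.26 (n = 3). No p is given for this ratio, which joins several members.

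Fcer1g, the gene of the common gamma chain, was among the most abundant transcripts of these cells, at rank 35 to 43 of the 10397 tested genes in each library. It had 1724, 1750 and 1884 CPM in KO 1, 2 and 3, against 1674, 1650 and 1584 CPM in WT 1, 2 and 3. KO 3 stood highest, and the groups did not overlap, with KO 1 the closest to the WT-labelled libraries. Means were 1786 ± 85.6 and 1636 ± 46.8 CPM (SD, n = 3 each). The log2 fold change was 0.13 (SE 0.065, 95% interval -0.013 to 0.27) and did not pass (edgeR adjusted p = 0.498). For every count of Fcgr1, Fcgr3 and Fcgr4 together there were 2.26, 2.23 and 2.39 counts of Fcer1g in KO 1, 2 and 3 and 2.46, 2.36 and 2.25 in WT 1, 2 and 3, with overlapping groups. With total-count scaling its log2 fold change was 0.023 and its groups overlapped.

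**Figure D4:**
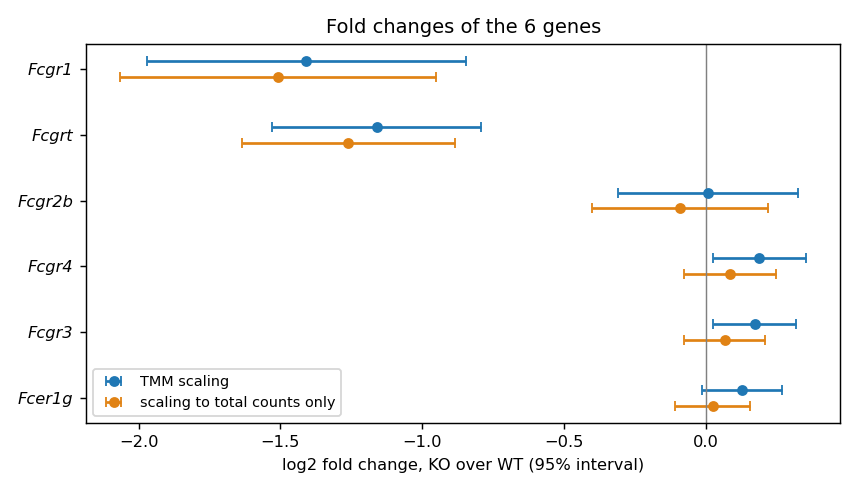
Log2 fold change, KO-labelled over WT-labelled (x axis), with 95% intervals for the 6 genes, with TMM scaling in blue and scaling to total counts in orange. The intervals of Fcgr1 and Fcgrt lie below 0 with both scalings, and those of Fcgr3 and Fcgr4 lie above 0 with TMM scaling and span 0 with total-count scaling.

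Tags of a 3′ library are counted once per transcript and were compared between genes without division by length. In order of mean CPM the KO-labelled libraries ran Fcer1g, Fcgr3, Fcgr4, Fcgr2b, Fcgrt and Fcgr1, and in the WT-labelled libraries Fcgrt (27.1 CPM) stood above Fcgr2b (25.6 CPM). Fcer1g, Fcgr3 and Fcgr4 were separate from each other and from Fcgr2b in every library. In all 3 KO-labelled libraries Fcgrt lay below Fcgr2b, whereas in the WT-labelled libraries their ranges overlapped. Fcgrt lay above Fcgr1 within each group.

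Promoter windows of the 2 genes that fell and of the 2 main neutrophil receptors are shown for comparison. They are the 150 bases before the start that RefSeq gives on GRCm38.p6, on the strand of the gene. Fcgr3 had 2 promoter entries, of which only the first was used, so what follows on Fcgr3 holds for that start alone. Capitals mark a PU box (GAGGAA, or TTCCTC on the other strand), which the myeloid factor PU.1 and its relative Spi-C are known to bind, a GAS element (TTCNNNGAA), bound by STAT factors, or an ISRE (GAAA, any 2 bases and GAAA), bound by interferon-induced factors.
Fcgr1, chr3:96293970-96294119, minus strand: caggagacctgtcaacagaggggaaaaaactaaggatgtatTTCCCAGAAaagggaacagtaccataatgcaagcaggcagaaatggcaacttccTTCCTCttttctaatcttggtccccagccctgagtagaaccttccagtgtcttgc
Fcgrt, chr7:45103823-45103972, minus strand: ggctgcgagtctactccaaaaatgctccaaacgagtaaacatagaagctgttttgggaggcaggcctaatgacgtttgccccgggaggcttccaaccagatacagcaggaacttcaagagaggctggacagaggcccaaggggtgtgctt
Fcgr3, chr1:171059404-171059553, minus strand: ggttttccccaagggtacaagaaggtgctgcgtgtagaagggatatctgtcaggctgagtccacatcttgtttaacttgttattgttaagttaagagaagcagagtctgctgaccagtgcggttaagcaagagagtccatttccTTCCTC
Fcgr4, chr1:171018776-171018925, plus strand: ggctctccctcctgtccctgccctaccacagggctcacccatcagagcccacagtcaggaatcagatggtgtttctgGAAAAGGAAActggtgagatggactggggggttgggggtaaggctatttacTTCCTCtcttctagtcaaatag
Both strands were searched in windows from 250 bases before to 50 after the start. A PU box was found in Fcgr1, Fcgr3 and Fcgr4, at 55, 6 and 22 bases before the start, and in 28.3% of 32851 RefSeq promoters. A GAS element was found in Fcgr1, at 109 bases before the start, and in 8.3% of all promoters. An ISRE was found in Fcgr4 and in 3.44% of all. None of these 3 motifs was found in the windows of Fcgrt, Fcgr2b and Fcer1g. Of 5 further motifs, TTGCNNAA was found in Fcgr3 and Fcgrt (10.8% of all promoters) and CANNTG in Fcgr1, Fcgr2b, Fcgr4 and Fcer1g (72.3%), while CACGTG (7.15%), TATAAA (13.6%) and GGGCGG (35.7%) were found in no member. A PU box thus stood in Fcgr1, which fell, and in Fcgr3 and Fcgr4, which did not pass the test. A match is a run of letters, not a shown binding site.

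Of 16 genes whose products pair with the gamma chain, members included, 11 were tested, 1 was lower (Fcgr1) and 0 were higher, with a median log2 fold change of 0.059. An unadjusted p under 0.05 was reached by 6 of the 11, 1 below and 5 above 0, against 11.4% of all genes tested. Of these 6, 3 were the members Fcgr1, Fcgr3 and Fcgr4, and the others were Clec4d, Clec4e and Tarm1. With total-count scaling 3 of the 11 reached it, 2 below and 1 above 0, against 13.1% of all genes. Clec4d and Clec4e, lectin receptors for mycobacterial and fungal glycolipids, stood at 400 ± 22.2 and 231 ± 19.9 CPM in KO-labelled and 309 ± 39.4 and 202 ± 7.9 CPM in WT-labelled libraries (SD, n = 3 each). Clec4d, at a log2 fold change of 0.37 (SE 0.092), had an adjusted p of 0.0801 by edgeR and 0.00382 by DESeq2, and Clec4e, at 0.20, had 0.381 by edgeR. The paired receptor gene Pira2, singled out after its values were seen, had 117 ± 96.4 CPM in KO-labelled and 186 ± 67.8 CPM in WT-labelled libraries (SD, n = 3 each); it belongs to a family of near-identical copies that can share reads, and its value is uncertain. Among other adaptor genes, Tyrobp, which encodes the ITAM adaptor DAP12, was at 2180 ± 141 and 1898 ± 113 CPM in KO-labelled and WT-labelled libraries (SD, n = 3 each). Hcst, which encodes the adaptor DAP10, was at 375 ± 11.3 and 326 ± 23.3 CPM in the same groups (SD, n = 3 each). The log2 fold changes of Tyrobp and Hcst, 0.20 each, did not pass (adjusted p 0.269 and 0.321, edgeR). Per count of Tyrobp there were 0.846, 0.803 and 0.812 counts of Fcer1g in KO 1, 2 and 3 and 0.862, 0.832 and 0.895 in WT 1, 2 and 3.

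Signalling genes downstream of the receptors did not pass the test either. Of 40 listed genes 38 were tested and 0 were called in either direction, with a median log2 fold change of 0.028. An unadjusted p under 0.05 was reached by 8 of the 38 (21.1%), 5 below and 3 above 0, against 11.4% of all genes tested, and with total-count scaling by 6 (15.8%), all below 0, against 13.1%. DESeq2 called 0 of them as well. The most abundant were Rac2, the GTPase gene that serves the phagocyte oxidase, at 2211 ± 87.9 and 2000 ± 135 CPM, the actin nucleation gene Arpc2 at 1540 ± 40.2 and 1562 ± 27.0 CPM, and Cdc42 at 867 ± 47.2 and 776 ± 34.0 CPM in KO-labelled and WT-labelled libraries (SD, n = 3 each). Their adjusted p was at least 0.412. Some further genes were singled out after their values were seen. Syk, the kinase that docks on the gamma chain, was at 249 ± 14.6 and 241 ± 2.9 CPM (log2 fold change 0.047, adjusted p = 0.885), and the phosphatase gene Inpp5d, which acts below FcγRIIB, at 108 ± 9.7 and 113 ± 1.7 CPM (-0.054, adjusted p = 0.881) in KO-labelled and WT-labelled libraries (SD, n = 3 each). Fyn, a Src family kinase gene, had 43 counts in the KO-labelled and 136 in the WT-labelled libraries (log2 fold change -1.53, adjusted p = 0.121), and Vav2, an exchange factor gene, had 84 and 208 counts (-1.16, adjusted p = 0.0865). With total-count scaling Vav2 passed (adjusted p = 0.0468), as did Was, an activator of actin nucleation (0.0439).

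**Figure D5:**
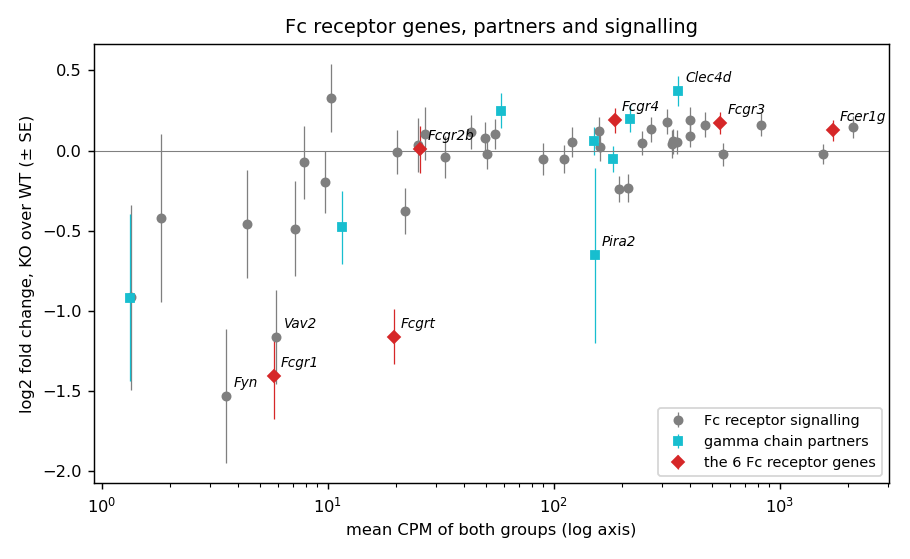
Log2 fold change, KO-labelled over WT-labelled, ± SE (y axis) against mean CPM of both groups (log x axis) for the 6 Fc receptor genes (red), tested gamma chain partners (cyan) and tested signalling genes (grey). Above 100 CPM, partner and signalling genes other than Pira2 and Clec4d lie between -0.24 and 0.20, and Fcgr1, Fcgrt, Fyn and Vav2 lie below -1.

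Other Fc receptor genes were scarce. Of 12 listed genes 3 were tested and 0 were called in either direction by edgeR or DESeq2, with 0 at an unadjusted p under 0.05. Trim21, the cytosolic antibody receptor gene, had 154 counts in KO-labelled and 144 in WT-labelled libraries, Fcrl1, an Fc receptor-like gene of B cells, 181 and 221, and Fcmr, the IgM receptor gene, 25 and 53. The IgE receptor genes of mast cells and basophils lay below the filter, Fcer1a with 0 and 3 and Ms4a2 with 6 and 18 counts. No count was seen for Fcamr, Fcrl5 or Fcrl6.

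Genes whose pattern over the 6 libraries was most like that of each member were looked up among the 5661 genes that averaged 10 CPM or more, by Pearson's r of log2 CPM. With 6 libraries in 2 groups, r is a description only. Closest to Fcgrt were Spic (r = 0.993), the growth factor gene Igf1 (0.991) and C1qc (0.990), which fell as well, with log2 fold changes of -1.21, -1.11 and -1.04. Closest to Fcgr1 were Myb (0.988), Zc3h11a (0.983) and Oxct1 (0.980), of which Oxct1, a ketone body enzyme gene, fell (log2 fold change -0.57, adjusted p = 0.0105). Zfp236 (0.996) and Rap1a (0.979) were among those closest to Fcgr3, and Fxyd5 (0.997) was closest to Fcgr4. Fcer1g was followed by Apbb1ip (0.987), Gnb1 (0.986) and Vdac1 (0.973), and Fcgr2b by Mrpl41 (0.973), Dhrs3 (0.969) and Tax1bp1 (0.966). None of the genes named for these 4 members passed the test.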

How the data were processed

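The authors deposited raw read counts, as whole numbers for each Ensembl gene, in 1 table of 6 Lexogen QuantSeq libraries, which read the 3′ end of polyadenylated transcripts, per the labels' protocols. The counts were not scaled. The submitters' processing notes list RSEM 1.2.3, DESeq2 and mm10 without saying what each was used for; aligner, annotation, strand setting and filters were not given in the sources used here. Names came from GENCODE vM21 (51596 of 51789 identifiers). The fit used edgeR 4.0.16 in R 4.3.3: TMM factors, filterByExpr (minimum count 10, minimum total 15), glmQLFit and glmQLFTest on the group alone, all 6 libraries, Benjamini-Hochberg adjustment over 10397 genes. Standard errors are the log2 fold change divided by the square root of F. Replicate pairs differed by a chi-square of 4.12 to 6.79 per degree of freedom, so none was a duplicate. Members and lists were chosen with earlier results of these data known. The text names the members, Snph, the 3 genes most like each member (some of these are not reported here), and called or most abundant list genes; others are marked. Counts were simulated for this comparison over 10397 genes, with 50 genes changed at each fold. Of genes raised 1.5-, 2- and 3-fold, 48%, 78% and 90% were called, and of genes lowered to 0.5, 56%. Changes as small as those of Fcgr3, Fcgr4 and Fcer1g were not simulated. Alternatives included DESeq2 1.42.0 and limma-voom (limma 3.58.1).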

Additional observations from a re-analysis of the deposited data

How the results depend on the processing

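Fcgrt kept its direction and call, and Fcgr3, Fcgr4 and Fcer1g their direction and lack of one, in all alternatives run for them (14 or 15 each). Fcgr1 kept its call in 12 of 14. Without 1 library the log2 fold changes ran from -1.51 to -1.22 for Fcgr1 (adjusted p 0.0323 to 0.153), -1.36 to -0.996 for Fcgrt, -0.090 to 0.18 for Fcgr2b, 0.15 to 0.19 for Fcgr3, 0.17 to 0.23 for Fcgr4 and 0.083 to 0.15 for Fcer1g, and the members called numbered 1 to 2. Fcgr2b turned to -0.093 with total-count scaling, -0.015 with upper-quartile factors and -0.011 with a filter of 5 CPM in 3 libraries; the cause was not tested. At an adjusted p under 0.01, 1 member was called. Over all genes 107 were called (76.6% lower), 162 with total-count scaling (88.9% lower), 287 with no filter (60.3% lower), 145 with DESeq2 (56.6% lower), 46 at 0.01, 182 at 0.1 and 49 to 97 without 1 library. Partner calls numbered 2 with DESeq2, 3 with no filter, 0 at 0.01, 2 at 0.1 and 0 to 2 without 1 library, against 1. Signalling calls numbered 2 with total-count scaling, 2 with no filter, 1 at 0.1 and 0 to 1 without 1 library, against 0. The log2 ratio of activating to inhibitory counts was -0.0082 to 0.25 without 1 library, against 0.14. Same-numbered libraries did not deviate together (r of -0.045 to -0.020), which cannot show whether they share more than a number. For differently numbered KO-labelled and WT-labelled libraries r ran from -0.22 to 0.22. With the replicate number as a block 92 genes and 2 members were called. With 73 Fcgr1 counts in the KO-labelled group, counting error limits its fold.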
